A study of Sus scrofa with 9 samples.

Results

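Interferon response genes and interferon regulatory factors (IRFs) were followed in pig blood by 22 of the 43603 probes of a porcine microarray. The members were IRF7, IRF1, MX1, OAS1, RSAD2, USP18 and DDX58, together with every probe whose description in the files names an interferon-induced protein, an interferon regulatory factor, an interferon stimulated gene or a myxovirus resistance gene. Names and descriptions in the files gave 19 probes. Another 3, listed there under the older names IRG6 and UBP, were recognised as RSAD2 and USP18 from their RefSeq accessions. IRF9 is listed in the files as LOC780415. The 22 probes stand for 15 genes or described transcripts. One of these, called ISG17-like below, is known here only by its match to the sheep interferon stimulated gene 17, a ruminant name of the ubiquitin-like protein ISG15.

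The blood came from male, specific-pathogen-free Clawn miniature pigs, a small laboratory breed, that received 300 µg/kg AZIDE by mouth. Azide is a respiratory poison that inhibits cytochrome oxidase in mitochondria. There were 3 arrays before feeding, 3 at 6 h and 3 at 24 h, and the age is stated both as 7 months and as 7 weeks. The later times have no untreated pigs beside them, the labels do not say whether replicates at different times came from one animal, and p-values therefore measure the spread between these samples.

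Each time had its own slide and its own scan, so slide, scan and time cannot be told apart. Between 39.9% and 56.6% of the 43803 non-control spots of an array were well above background, and 0 were saturated. The log2 75th percentile of the processed signal ranged between 5.79 and 6.55 before feeding, between 5.91 and 6.56 at 6 h, and between 6.77 and 7.69 at 24 h. Markers of blood leucocytes were present on all 9 arrays. All 5 neutrophil and 9 monocyte markers with a probe named here, and 7 of 8 such T cell markers, were well above background on each.

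Interferons are secreted proteins that warn cells of infection. They bind receptors that act through Janus kinases and STAT transcription factors. STAT2 and IRF9 act together in a complex that switches on interferon-stimulated genes, among them MX1, OAS1, RSAD2 and the ISG15 family, whose products block steps of virus growth. DDX58 (RIG-I) senses viral RNA, IRF3 and IRF7 switch on the interferon genes themselves, IRF1 is a factor induced by interferon gamma, and USP18 removes ISG15 from proteins and dampens the type I receptor. In blood these genes are used in leucocytes of many kinds.

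The probes are 60-base DNA sequences taken here from the scanner files. The pairs below are shown because probes of 1 gene did not always give the same difference between times, and ISG17-like and IRF1 because their 6 h arrays did not overlap those at 24 h. In 4 of the windows the capitals mark AATAAA, the usual polyadenylation signal, searched on the printed strand only. It is held by 6 of the 22 member probes and by 12.1% of all 43603 probes. Windows of 30 bases are parts of a probe, and the first probe of IRF7, OAS1 and MX1 is shown by the window around that signal.
IRF7 probe 1: accctggacccctcccaatccAATAAAaaa
IRF7 probe 2: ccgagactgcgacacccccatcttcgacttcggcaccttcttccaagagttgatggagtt
OAS1 probe 1: ccctaaaaagacaaaaaataatAATAAAat
OAS1 probe 2: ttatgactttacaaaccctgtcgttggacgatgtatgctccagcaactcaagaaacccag
USP18 probe 1: catgtgactgtactggcatgtcctggttgt
USP18 probe 2: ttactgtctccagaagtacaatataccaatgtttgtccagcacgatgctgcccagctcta
MX1 probe 1: gaagcctatttcttttatttgtAATAAAct
ISG17-like: accccaccgagtgctagtAATAAAgctgtg
IRF1: cactaagtcgtgtgcgaccacacatgtata
The MX1 probes share a run of 45 bases and are therefore almost 1 measurement. The IRF7, OAS1 and USP18 pairs share no run longer than 7 bases and read separate stretches of their transcripts. No genome was used, so the positions of the probes in the pig genome were not analysed here.

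Of the 22 member probes, 18 exceeded background clearly on each of the 3 arrays of some time and were tested. They represent 11 genes: the factors IRF1, IRF3, IRF7 and IRF9, the sensor DDX58, the regulator USP18, and the antiviral genes ISG17-like, MX1, MX2, OAS1 and RSAD2. The other 4 probes, among them those of ISG20 and of a transcript described as like IFIT1, were not well above background on any of the 9 arrays. A level below is the log2 processed signal minus the array's 75th percentile, so 0 means as bright as that percentile. Levels of different probes are not comparable with each other. Where a gene has several probes, probe 1 is the brightest and stands for the gene.

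**Figure D1:**
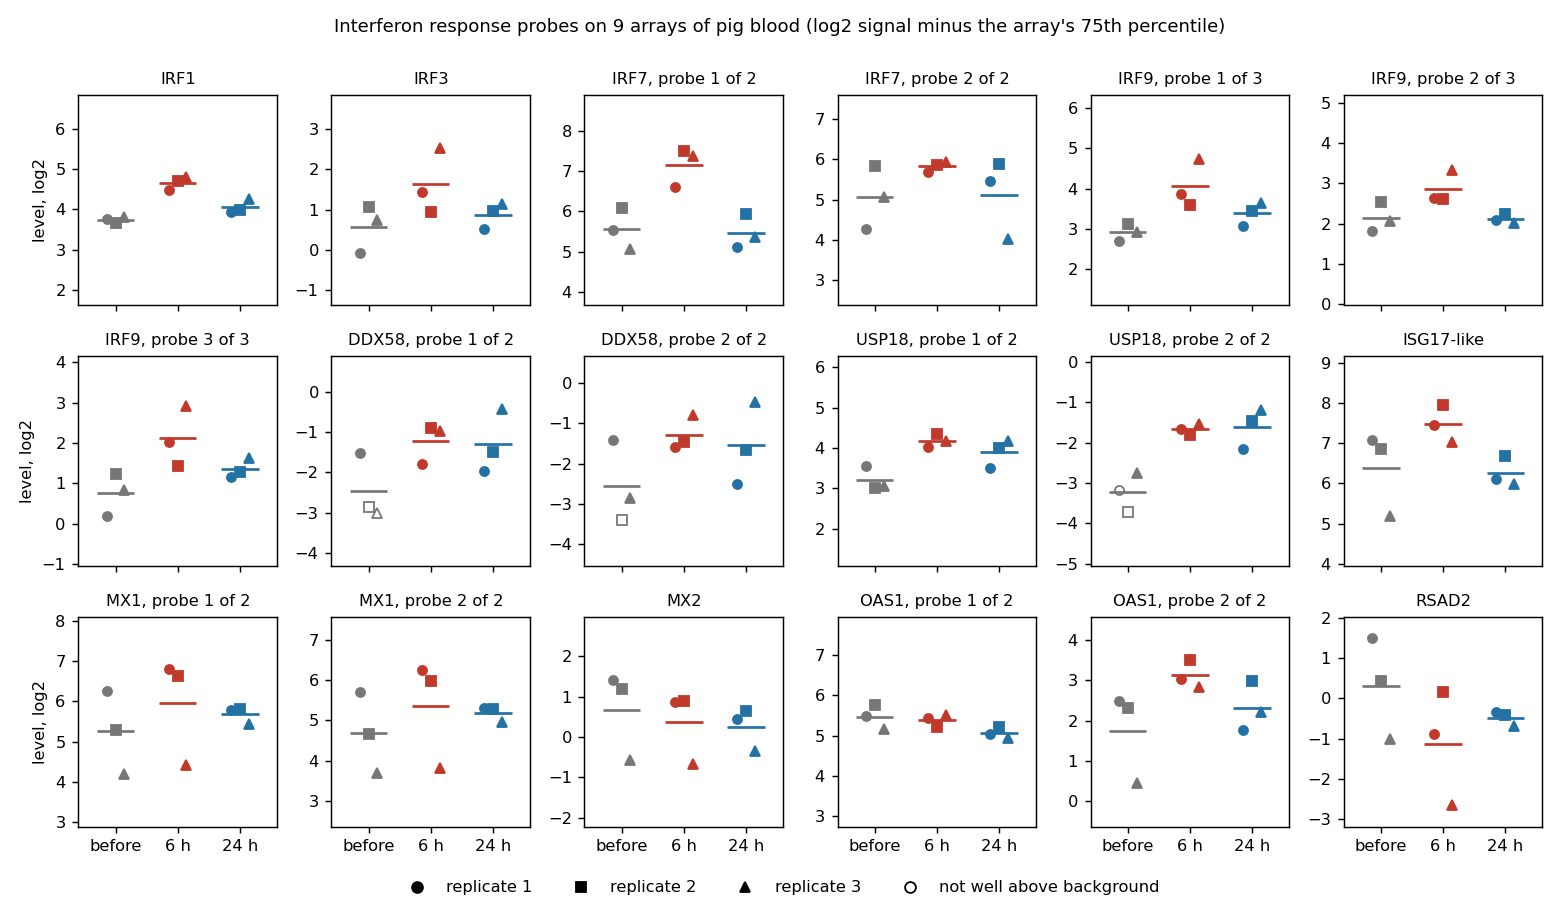
Level of each of the 18 tested member probes on each of the 9 arrays (y axis, log2 signal minus the array's 75th percentile, every panel spanning the same number of log2 units; x axis, before feeding, 6 h and 24 h; marker shape, replicate; bar, group mean; open marker, not well above background). IRF7 probe 1 lay between 6.60 and 7.49 at 6 h and between 5.07 and 6.09 before feeding. MX1 and RSAD2 varied widely between arrays before feeding and at 6 h, and less at 24 h.

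The first comparison, 6 h against before feeding, shows how the pathway stood soon after the dose. Most members had a higher value at 6 h, with the largest difference in IRF7 probe 1, while RSAD2, MX2 and the brightest OAS1 probe had lower values. None of the 18 probes passed the threshold (limma, adjusted p under 0.05 over 19783 probes), against 0.0253% of all probes tested. The smallest limma adjusted p among the members was 0.0755 for USP18 probe 2, which was near background before feeding, and among member probes well above background on all 9 arrays it was 0.0771, for IRF7 probe 1. At an unadjusted p under 0.05, 11 of the 18 probes passed, all with higher values, where 25.5% of all probes passed and 14.7% passed with a higher value. The groups did not overlap for 8 of the 18, all higher at 6 h, where 26.6% of all probes did not overlap and 16% did so with a higher value. Some of these probes read the same gene. With 1 probe for each of the 11 genes, 4 did not overlap and 7 had an unadjusted limma p under 0.05, all higher. Over the 11 genes the median difference was 0.97, with 8 higher, beside a median of 0.05 over all tested probes, of which 52.6% were higher. Both DDX58 probes and USP18 probe 2 passed the background filter only through the later times, so counts over the 18 favour differences. Of the 15 member probes well above background on all 9 arrays, 9 had an unadjusted p under 0.05, all higher, where 25.3% of all such probes did.

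Among the transcription factors, IRF7, which drives transcription of interferon genes, had the largest difference. IRF7 probe 1 read 6.60, 7.49 and 7.38 at 6 h, against 5.53, 6.09 and 5.07 before feeding. Every 6 h array was above every array before feeding. The difference was 1.59 ± 0.37 on the log2 scale (SE, n = 3 each), or 3.01-fold, with an adjusted p of 0.0771 by limma. IRF7 probe 2 read 5.69, 5.86 and 5.95 at 6 h, against 4.27, 5.83 and 5.08 before feeding. Here the 6 h arrays lay close together and overlapped the second array before feeding. The difference was 0.77 ± 0.50, with a limma adjusted p of 0.348. Both IRF7 probes thus had higher means at 6 h, and the difference between the 2 probes was not tested.

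IRF1, the factor known for its induction by interferon gamma, had replicates close to each other. It read 4.48, 4.71 and 4.80 at 6 h, against 3.77, 3.66 and 3.81 before feeding. The groups were clearly apart, with SDs of 0.17 at 6 h and 0.08 before feeding. The difference was 0.92 ± 0.25, or 1.89-fold, and its adjusted p was 0.0832 by limma.

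IRF9, the DNA-binding partner of STAT2, was read by 3 probes that share no run longer than 6 bases. IRF9 probe 1 read 3.86, 3.59 and 4.72 at 6 h, against 2.70, 3.12 and 2.93 before feeding. IRF9 probe 2 read 2.64, 2.62 and 3.34 at 6 h, against 1.83, 2.53 and 2.07 before feeding. IRF9 probe 3 read 2.02, 1.43 and 2.91 at 6 h, against 0.19, 1.23 and 0.83 before feeding. In all 3 probes the third 6 h array was the highest of the 9 and the groups did not overlap. The differences were 1.14 ± 0.34, 0.72 ± 0.30 and 1.37 ± 0.41, with limma adjusted p-values of 0.0949, 0.171 and 0.096. IRF3, which answers RNA sensors by switching on interferon beta, read 1.44, 0.95 and 2.54 at 6 h, against -0.07, 1.05 and 0.75 before feeding. The groups overlapped through the second array of each, and the difference was 1.07 ± 0.44 with a limma adjusted p of 0.167.

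DDX58, the RIG-I sensor of viral RNA, was dim, and before feeding it was well above background on 1 of 3 arrays by probe 1 and on 2 of 3 by probe 2. DDX58 probe 1 read -1.80, -0.91 and -0.98 at 6 h, against -1.53, -2.86 and -3.01 before feeding. DDX58 probe 2 read -1.60, -1.46 and -0.80 at 6 h, against -1.41, -3.40 and -2.86 before feeding. In both probes the first array before feeding lay within the range of the 6 h values and the other 2 lay below them. The differences were 1.24 ± 0.50 and 1.27 ± 0.58, with limma adjusted p-values of 0.159 and 0.202.

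USP18, the protease that removes ISG15 and holds back receptor signalling, had higher values by both probes. USP18 probe 1 read 4.04, 4.34 and 4.18 at 6 h, against 3.56, 3.02 and 3.05 before feeding. USP18 probe 2 read -1.65, -1.80 and -1.54 at 6 h, against -3.17, -3.72 and -2.76 before feeding, where only 1 of the 3 arrays was well above background. The groups were apart in both probes. Probe 1 differed by 0.97 ± 0.29, or 1.97-fold, with a limma adjusted p of 0.096. Probe 2 differed by 1.55 ± 0.34 (limma adjusted p = 0.0755), a value that rests on signal near background before feeding.

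The antiviral genes had both higher and lower values at 6 h, none past the threshold. ISG17-like read 7.44, 7.94 and 7.03 at 6 h, against 7.08, 6.86 and 5.18 before feeding. The groups overlapped, and the third array before feeding stood well below the other 5. The difference was 1.09 ± 0.48 (limma adjusted p = 0.186) and became 0.50 without that array. MX1, a GTPase that blocks influenza and other viruses, read 6.80, 6.64 and 4.42 at 6 h by probe 1, against 6.27, 5.30 and 4.20 before feeding. The array of replicate 3 was the lowest in both groups, and the groups overlapped widely. The difference was 0.70 ± 0.65 (limma adjusted p = 0.515), and it was 0.17 when replicate 3 before feeding was left out and 1.47 when 6 h replicate 3 was left out. MX1 probe 2, nearly the same sequence, gave 0.66 ± 0.64.

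OAS1 makes 2',5'-linked oligoadenylates, a signal for RNA breakdown, and its 2 probes gave different pictures. OAS1 probe 1 read 5.44, 5.22 and 5.50 at 6 h, against 5.49, 5.75 and 5.16 before feeding. OAS1 probe 2 read 3.04, 3.51 and 2.84 at 6 h, against 2.49, 2.32 and 0.45 before feeding. The groups overlapped in probe 1 and did not in probe 2, where the third array before feeding was far below the others. The differences were -0.08 ± 0.26 and 1.38 ± 0.52, with limma adjusted p-values of 0.87 and 0.147, and that of probe 2 was 0.73 without the third array before feeding. Probe 2 is annotated in the files to the OAS1 RefSeq mRNA, and probe 1, whose window holds the polyadenylation signal, to a cDNA clone from alveolar macrophage. The difference between the 2 probes was not tested.

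RSAD2 (viperin), an enzyme that makes a chain-terminating nucleotide, ran the other way. It read -0.88, 0.16 and -2.65 at 6 h, against 1.48, 0.42 and -1.01 before feeding. The groups overlapped widely, and the third array was the lowest of both. The difference was -1.42 ± 0.71 (limma adjusted p = 0.236), and it was -0.66 without 6 h replicate 3 and -0.83 without replicate 1 before feeding. MX2, the relative of MX1, read 0.87, 0.89 and -0.66 at 6 h, against 1.42, 1.19 and -0.58 before feeding. Its groups overlapped too, and the difference was -0.31 ± 0.58 (limma adjusted p = 0.766).

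Leaving out 1 array changed the calls at 6 h in 1 case: without 6 h replicate 2, 3 probes of IRF9 and USP18 passed, when 12.1% of all probes passed as well. Without the third array before feeding, 7 member probes had an unadjusted p under 0.05, of which 6 were higher and 1 lower. In that setting 18% of all probes had such a p. Across all scalings, filters, fits and left-out arrays tried, IRF1, IRF3, IRF7, IRF9, DDX58, USP18, ISG17-like and MX1 kept a positive difference at 6 h and RSAD2 a negative one, while OAS1 and MX2 changed sign under some. The smallest of these for DDX58 was 0.22 ± 0.22, with normexp background correction. For IRF7 the difference ran over these settings between 1.18 and 1.87, with limma adjusted p-values of 0.00117 to 0.24. It passed the threshold in 3 of 23 settings, among them limma array weights, with which 50% of all probes passed.

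**Figure D2:**
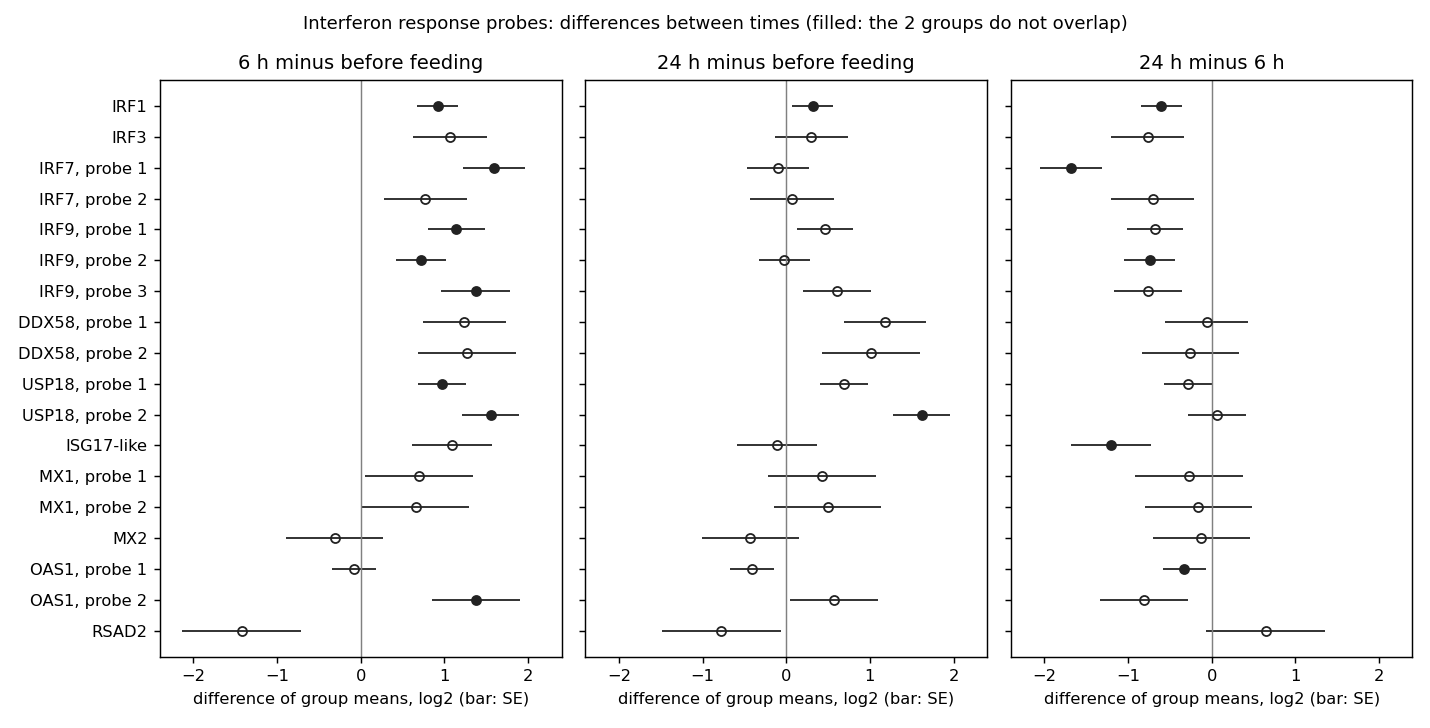
Difference of group means on the log2 scale (x axis) for each tested member probe (y axis) in the 3 comparisons; bars are the limma standard error and filled points are probes whose 2 groups did not overlap. At 6 h the 8 filled points all lie right of 0, and in the right panel 16 of 18 probes lie left of 0, a direction that holds for only 3 of 18 when arrays are centred on the spike-in controls.

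Blood cell markers had other values at 6 h as well, and in bulk blood a change in the share of a cell type and a change in RNA per cell cannot be told apart. Neutrophil markers had higher values for 5 of 5 genes (median 1.19), monocyte markers for 8 of 9 (median 1.93), and T cell markers lower values for 7 of 8 (median -0.75). None passed the threshold over all probes. The log2 of the summed level of the neutrophil markers was 9.84 to 10.99 at 6 h, against 8.61 to 9.23 before feeding. That of the monocyte markers was 8.46 to 9.94 at 6 h, against 7.08 to 7.49 before feeding, and that of the T cell markers was 5.39 to 6.74 at 6 h, against 7.08 to 7.34 before feeding. The summed level of the 11 interferon members was 8.79 to 9.29 at 6 h, against 7.29 to 8.42 before feeding. Within the 6 h group the arrays did not follow one order: neutrophil and monocyte markers were highest on the third array, where the mean level of the members was lowest. On that array ISG17-like, MX1, MX2 and RSAD2 were the lowest of the 3, and IRF1, IRF3, IRF9 and OAS1 (probe 1) the highest. The part of cell composition in the differences of the members was not tested.

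**Figure D3:**
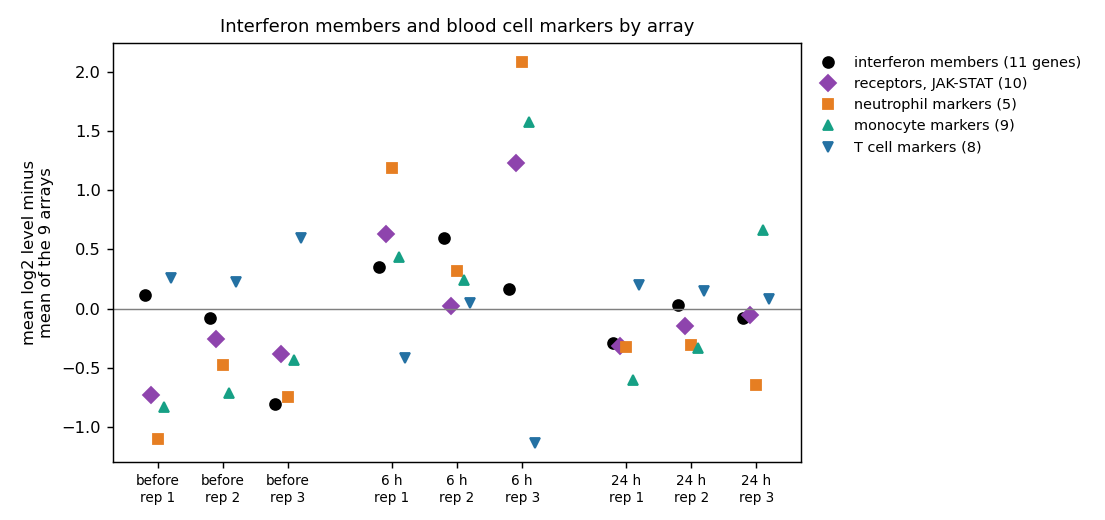
Mean log2 level of each list on each array minus its mean over the 9 arrays (y axis), by time and replicate (x axis), for the 11 interferon members, 10 receptor and JAK-STAT genes, and neutrophil, monocyte and T cell markers. The members stood at 0.35, 0.60 and 0.17 on the 6 h arrays, while the neutrophil markers stood at 1.19, 0.32 and 2.09.

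A second comparison set 24 h against before feeding and asks which members still stood apart a day after the dose. USP18 and DDX58 had higher group means at 24 h, though DDX58 and USP18 probe 2 were near background before feeding, and IRF7 values covered the same range at both times. None of the 18 probes passed the threshold by limma, and 0% of all probes did. At an unadjusted p under 0.05, 3 probes passed, all higher, where 13.9% of all probes did and 5.32% did with a higher value. Of the 15 member probes well above background on all 9 arrays 1 had such a p, where 13.2% of all such probes did. The groups did not overlap for 2 probes, IRF1 and USP18 probe 2, both higher, where 26.5% of all probes did not overlap and 7.5% did so with a higher value. The median over the 11 genes was 0.30, with 6 higher, beside -0.01 over all tested probes. On probes well above background on all 9 arrays the members' median was 0.10, beside -0.07 over all such probes.

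USP18 probe 1 read 3.50, 4.01 and 4.19 at 24 h, against 3.56, 3.02 and 3.05 before feeding. USP18 probe 2 read -2.17, -1.45 and -1.18 at 24 h, against -3.17, -3.72 and -2.76 before feeding. Probe 2 was apart from its values before feeding on all arrays, and probe 1 overlapped by 1 array of each group. The differences were 0.69 ± 0.29 and 1.62 ± 0.34, with limma adjusted p-values of 0.334 and 0.217. DDX58 probe 1 read -1.96, -1.48 and -0.42 at 24 h, against -1.53, -2.86 and -3.01 before feeding. The first array before feeding again lay among the later ones, and the difference was 1.18 ± 0.50 (limma adjusted p = 0.336). DDX58 probe 2 gave 1.01 ± 0.58.

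The transcription factors differed less at 24 h. IRF7 probe 1 read 5.11, 5.92 and 5.37 at 24 h, against 5.53, 6.09 and 5.07 before feeding. The 2 groups covered the same range, with a difference of -0.10 ± 0.37. IRF7 probe 2 read 5.46, 5.89 and 4.03 at 24 h and differed by 0.07 ± 0.50. IRF1 read 3.94, 3.99 and 4.25 at 24 h, against 3.77, 3.66 and 3.81 before feeding. All 24 h arrays were above those before feeding, and the difference of 0.32 ± 0.25 had a limma adjusted p of 0.58. IRF9 probe 1 read 3.06, 3.43 and 3.65 at 24 h and differed by 0.47 ± 0.34. IRF3 read 0.51, 0.97 and 1.14 at 24 h and differed by 0.30 ± 0.44. Both genes lay within or close to the spread before feeding. IRF9 probe 2 differed by -0.02 ± 0.30 and IRF9 probe 3 by 0.61 ± 0.41.

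For the antiviral genes the 24 h arrays lay within or near the values before feeding. MX1 probe 1 read 5.79, 5.82 and 5.45 at 24 h and differed by 0.43 ± 0.65. ISG17-like read 6.10, 6.69 and 6.00 at 24 h and differed by -0.11 ± 0.48. Their 24 h arrays lay close together, with SDs of 0.21 and 0.37 at 24 h, against 1.04 and 1.04 before feeding. OAS1 probe 1 read 5.03, 5.20 and 4.94 at 24 h and differed by -0.41 ± 0.26, while OAS1 probe 2 read 1.78, 2.98 and 2.21 and differed by 0.57 ± 0.52. RSAD2 read -0.34, -0.41 and -0.70 at 24 h and differed by -0.78 ± 0.71. MX2 read 0.44, 0.63 and -0.34 at 24 h and differed by -0.43 ± 0.58. All 6 of these probes overlapped their values before feeding on at least 1 array.

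Directions at 24 h depend on the scaling. When the 7 spike-in controls set the scale, all 18 probes were higher at 24 h than before feeding and 10 passed the threshold, when 29.4% of all probes passed and the median of all probes was 0.99. Under every setting tried, IRF1, IRF9, USP18 and DDX58 kept a positive difference at 24 h, that of DDX58 being 0.12 ± 0.22 with normexp background correction, while IRF3, IRF7, ISG17-like, MX1, MX2, OAS1 and RSAD2 changed sign under at least 1. Without the third array before feeding the members' median at 24 h was -0.10. The log2 summed level of the cell markers at 24 h was 8.40 to 8.85 for neutrophils, 7.51 to 8.73 for monocytes and 6.39 to 6.71 for T cells. Such sums follow the brightest probes. By single markers against before feeding, 3 of 5 neutrophil (median 0.47) and 7 of 9 monocyte markers (0.57) were higher. Of the T cell markers 5 of 8 were lower (median -0.16). The part of these cells in the 24 h values of the members was not tested.

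The third comparison, 24 h against 6 h, asks whether the 6 h values lasted, and it shares its 6 h arrays with the first. By the 75th percentile 16 of 18 probes were lower at 24 h, with a median over the 11 genes of -0.33 beside -0.09 over all tested probes. With spike-in centring 15 of 18 were higher and the median was 0.45, beside 0.69 over all probes. None passed the threshold by limma, and 0% of all probes did. At an unadjusted p under 0.05, 4 probes were lower, where 21.6% of all probes passed and 13.6% passed with a lower value. The groups did not overlap for 5 probes, all lower, where 26.5% of all probes did not overlap and 16.5% did so with a lower value.

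IRF7 had the largest difference of the members. Its probe 1 read 5.11, 5.92 and 5.37 at 24 h, against 6.60, 7.49 and 7.38 at 6 h. Every 24 h array was below every 6 h array. The difference was -1.69 ± 0.37 (limma adjusted p = 0.112), and it stayed negative under every setting tried, between -1.96 and -0.91. IRF7 probe 2 differed less, by -0.71 ± 0.50 (limma adjusted p = 0.441), and its groups overlapped. Without 24 h replicate 3 its difference was -0.16. ISG17-like, at 6.10, 6.69 and 6.00 at 24 h against 7.44, 7.94 and 7.03 at 6 h, differed by -1.21 ± 0.48 (limma adjusted p = 0.19). Its difference stayed negative under every setting tried. IRF1 differed by -0.60 ± 0.25 and IRF9 probe 2 by -0.74 ± 0.30, and both IRF1 and IRF9 turned positive with spike-in centring. USP18 probe 2 and DDX58 probe 1 lay at like levels at both times, with differences of 0.07 ± 0.34 and -0.06 ± 0.50.

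The group means over the 3 times are given for probes of 4 genes, and differences between their courses were not tested. IRF7 probe 1 averaged 5.56 ± 0.51 before feeding, 7.15 ± 0.49 at 6 h and 5.47 ± 0.42 at 24 h (SD, n = 3 each). Its 6 h level was the highest and the other levels were closer together than their SDs. USP18 probe 1 averaged 3.21 ± 0.31 before feeding, 4.19 ± 0.15 at 6 h and 3.90 ± 0.36 at 24 h. Its 24 h arrays overlapped both other times. USP18 probe 2 averaged -3.22 ± 0.49 before feeding, -1.66 ± 0.13 at 6 h and -1.60 ± 0.51 at 24 h. Its later levels did not differ beyond their spread, and both lay above the earliest, which was near background. IRF1 averaged 3.75 ± 0.08 before feeding, 4.66 ± 0.17 at 6 h and 4.06 ± 0.16 at 24 h, in an order of before feeding, 24 h and 6 h with no overlap between neighbours. RSAD2 averaged 0.30 ± 1.25 before feeding, -1.13 ± 1.42 at 6 h and -0.48 ± 0.19 at 24 h, with no neighbours apart by more than the spread.

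**Figure D4:**
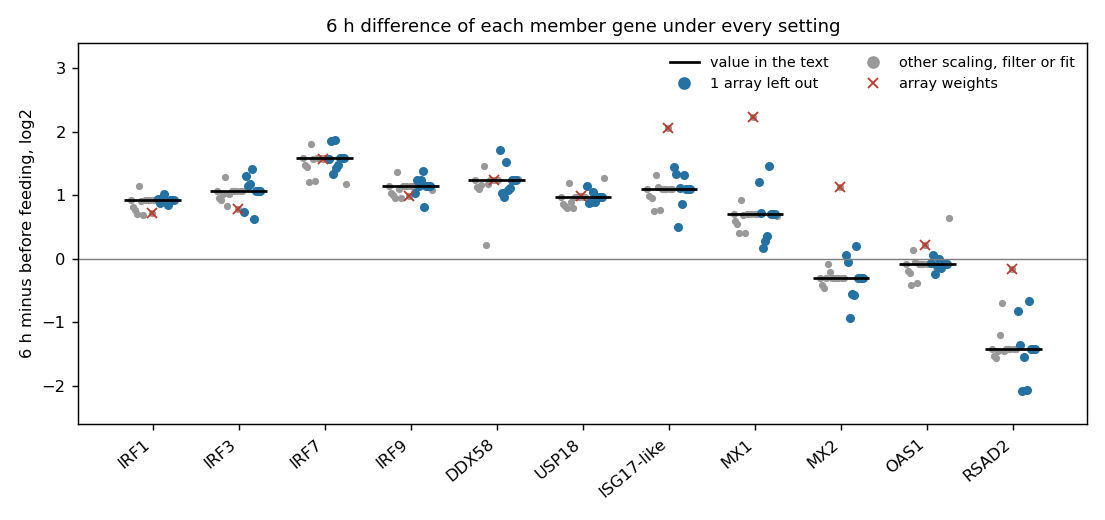
Difference of each member gene at 6 h against before feeding on the log2 scale (y axis) under every scaling, filter, fit and left-out array tried (points; black bar, the value in the text; cross, limma array weights). IRF7 stayed between 1.18 and 1.87 and IRF1 between 0.70 and 1.14, while MX1 ran between 0.17 and 2.23 and MX2 and OAS1 lay on both sides of 0.

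Other genes of the pathway were read from lists chosen with earlier results known, with no test of a list. List genes were found by symbol, and 1992 symbols were named here. A gene counted without a probe may thus have a probe that was not named. IFNA1, IFNB1 and IFNE, the 3 of 12 interferon genes with a probe named here, exceeded background clearly on 0 of the 9 arrays. Of 15 receptor and JAK-STAT genes 10 were tested, and all 10 had higher values at 6 h than before feeding, with a median of 1.06. At an unadjusted p under 0.05 there were 6, all higher, where 25.5% of all probes passed and 14.7% passed with a higher value. None passed the threshold. STAT3 differed by 1.84 ± 0.47 (limma adjusted p = 0.081) and IFNAR1, a chain of the type I interferon receptor, by 1.83 ± 0.54 (0.0949). STAT2, the partner of IRF9, named here after its values were seen, differed by 0.88 ± 0.26 with the same limma adjusted p as IFNAR1, 0.0949. STAT2 and IRF9, parts of the complex that acts on interferon-stimulated genes, both had 6 h values above all arrays before feeding. The same was so for 16% of all probes, and the activity of the complex was not tested. On the single 6 h arrays the mean level of the 10 genes was 0.63, 0.02 and 1.23 above its mean over the 9 arrays. It was highest on the third array, as the neutrophil markers were at 2.09 and the monocyte markers at 1.58, and lowest on the second, and the part of those cells in it was not tested. At 24 h against 6 h, 9 of the 10 were lower by the 75th percentile (median -1.02, and -0.24 with spike-in centring), among them STAT3 at -1.40 ± 0.47 and JAK1 at -1.06 ± 0.39. At 24 h against before feeding the median was 0.36, and it was 1.36 with spike-in centring, when 6 of the 10 and 29.4% of all probes passed the threshold.

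Of the nucleic acid sensors and adaptors 8 of 22 were tested, with a median of 0.65 at 6 h, or 0.23 with normexp background correction, and 6 higher. TLR9, a sensor of unmethylated DNA, differed by 1.60 ± 0.49 at 6 h and 1.45 ± 0.49 at 24 h against before feeding, where it was well above background on only 1 of 3 arrays. MYD88, its adaptor, differed by 1.08 ± 0.41 and TLR8 by 0.81 ± 0.32 at 6 h, while TLR7, a sensor of single-stranded RNA, differed by -0.72 ± 0.28. Before feeding TLR8 was well above background on 2 of 3 arrays, so it passed the background filter, as TLR9 did, only through the later times. TRAF6 differed by -0.75 ± 0.38 at 24 h against 6 h. None passed the threshold in any comparison by the 75th percentile. With spike-in centring 4 of the 8 passed at 24 h against before feeding, with a median of 1.36, when 29.4% of all probes passed.

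Of 45 other antiviral effectors 8 had a probe named here and 7 were tested, with a median of 0.82 at 6 h and 5 higher. IFITM1, which hinders virus entry, differed by 1.33 ± 0.30 (limma adjusted p = 0.0771), EIF2AK2 (PKR), a kinase that stops translation on double-stranded RNA, by 1.02 ± 0.35, and OAS2 by 1.11 ± 0.38. The groups of all 3 were apart at 6 h, as those of 16% of all probes were with a higher value. The 3 were named for their small p, so this follows from the choice. Of the 7 tested, 3 had an unadjusted limma p under 0.05, all higher. Among all probes 25.5% passed and 14.7% passed with a higher value. OASL and APOBEC3B had lower values at 6 h, by -0.59 ± 0.50 and -0.54 ± 0.32. At 24 h against before feeding 6 of the 7 were lower, with a median of -0.42, which was 0.58 with spike-in centring. OASL differed there by -1.16 ± 0.50 by the 75th percentile. At 24 h against 6 h all 7 were lower by the 75th percentile, with a median of -1.12, which was -0.34 with spike-in centring. IFITM1 differed by -1.23 ± 0.30 and EIF2AK2 by -1.12 ± 0.35, with limma adjusted p-values of 0.112 to 0.129.

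Genes best known for their response to interferon gamma were mixed. Of 9 tested, 5 had higher and 4 lower values at 6 h, with a median of 0.17. The sign of that median depended on the scaling: it was -0.21 with quantile normalization, -0.17 with the deposited series-wide values and 0.40 with spike-in centring. SOD2, the mitochondrial superoxide dismutase, differed by 2.05 ± 0.57 and the peptide transporter TAP1 by 0.97 ± 0.38, while the chemokine CXCL10 differed by -1.83 ± 0.78. CXCL10 then differed by 1.64 ± 0.78 at 24 h against 6 h, and the immunoproteasome subunits PSMB8 and PSMB9 by -0.64 ± 0.28 and -0.61 ± 0.23. PSMB10, another such subunit, named here after its values were seen, differed there by 0.04 ± 0.28. At 6 h against before feeding PSMB10 differed by -0.60 ± 0.28. The list's median at 24 h against 6 h was -0.14, and it was 0.04 with quantile normalization. Of 17 negative regulators only SOCS2 had a probe named here, and it differed by -0.48 ± 0.37 at 6 h. It was well above background on 2 of 3 arrays before feeding and on 2 of 3 at 6 h.

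**Figure D5:**
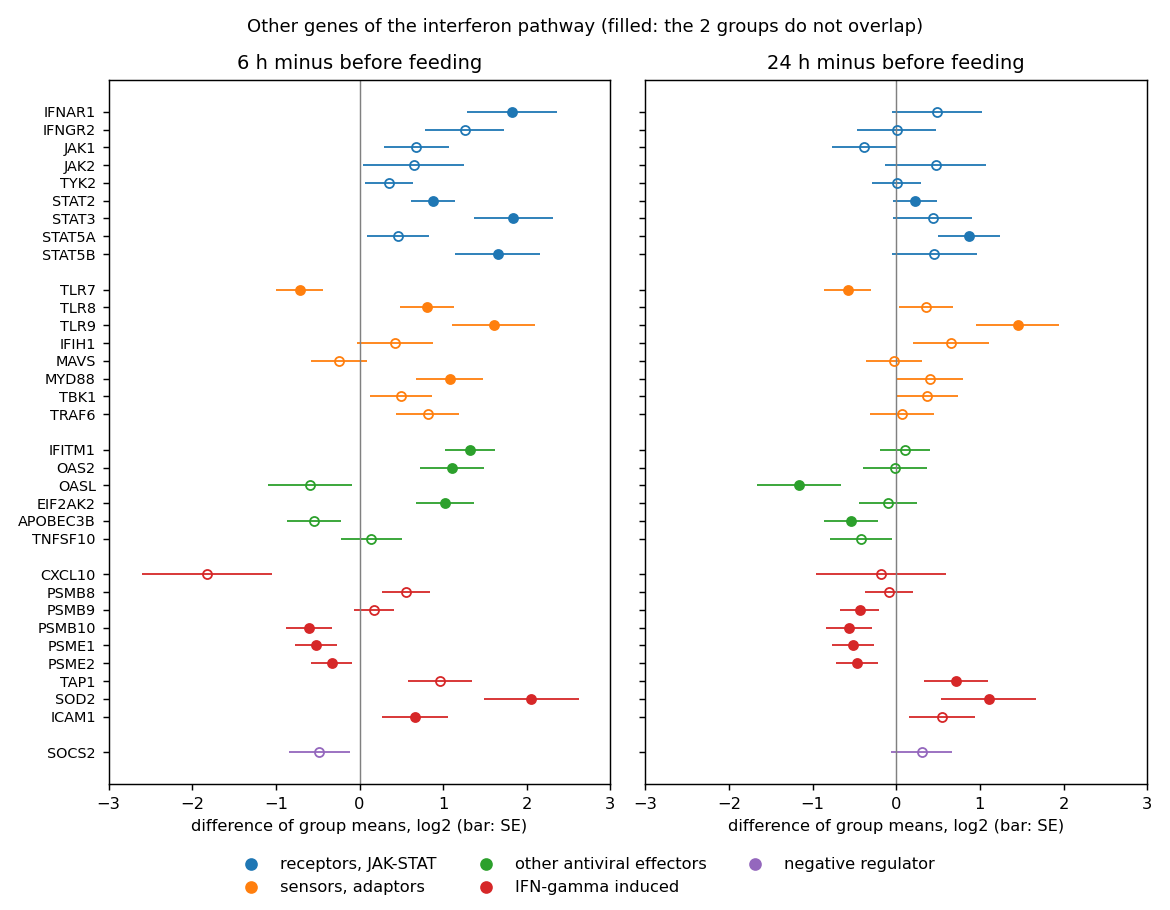
Difference of group means on the log2 scale with its limma standard error (x axis) for other tested genes of the interferon pathway (y axis), at 6 h on the left and 24 h on the right, each against before feeding; colours are lists and filled points are genes whose 2 groups did not overlap. The receptor and JAK-STAT genes shown all lie right of 0 at 6 h, where the median of the 10 tested was 1.06, and that median was 0.36 at 24 h.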

How the data were processed

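Whole blood RNA, kept in PAXgene tubes, was labelled with Cy3 and each sample hybridised to an Agilent array of its own, per the labels' protocols. The scanner files give the processed intensity of every spot, deposited by the authors after background subtraction without scaling between arrays, per the file headers. Feature Extraction appears as version 10.5.1.1 in the file headers and as 9.5.3.1 in the submitters' processing notes. The authors also deposited series-wide values, read here as linear intensity; their making is not given in the sources used, and they served as an alternative.

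Control and outlier-flagged spots were left out and spots of a probe averaged, which left 43596 of 43603 probes. From the log2 of the processed signal each array's 75th percentile was subtracted. The 19783 probes that were well above background on every array of at least 1 time entered a single limma fit (limma 3.58.1, R 4.3.3) of all 9 arrays with time as the only term, with 6 residual and 4.6 prior degrees of freedom. P-values were adjusted by Benjamini-Hochberg over all tested probes, with a threshold of 0.05. The 3 arrays per time limit the precision. The fit was tested on simulated data.

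The members and lists were chosen with earlier results of these data known. Members were named, with every array's value for the tested genes, and in each pathway list up to 3 genes per direction with the smallest unadjusted p in any comparison. Results of a few genes are left out of the text and plots, though the counts and medians of their lists include them. RefSeq was used only for names; promoters were not analysed here. Alternatives were 4 other scalings, normexp (offset 50), the authors' series-wide values, other filters and fits, limma array weights, a replicate block and leaving out each array. R's data.table (version 1.17.8) and Python 3.11.15 with pandas 2.3.3 and numpy 2.4.6 joined the files, and matplotlib 3.10.9 drew the plots.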

Additional observations from a re-analysis of the deposited data

How the results depend on the processing

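The count of member probes past the threshold was 0 in each comparison and stayed so under most settings. At 6 h against before feeding it was 1 with spike-in centring (IRF7, with 3.11% of all probes), 15 with array weights (50% of all probes) and 2 with a replicate block (IRF7 and USP18, with 3.13% of all probes), and it ran from 0 to 3 when 1 array was left out, 3 being without 6 h replicate 2. At 24 h against before feeding it was 10 with spike-in centring (29.4% of all probes) and 7 with array weights (27.5%), and 0 to 0 when 1 array was left out. At 24 h against 6 h it was 3 with array weights (29.2%), and 0 to 0 when 1 array was left out. The array weights ran from 0.274 to 8.27, with 8.27 on the third array before feeding and 3.45 on the first 6 h array, so each group mean rested mostly on few arrays. Under them MX2 differed by 1.13 at 6 h and ISG17-like by 1.06 at 24 h against before feeding, opposite in sign to the values given above.

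The members' median moved to 1.30 at 24 h against before feeding and to 0.45 at 24 h against 6 h with spike-in centring. When 1 array was left out it ran from 0.85 to 1.05 at 6 h, from -0.10 to 0.38 at 24 h against before feeding and from -0.49 to -0.32 at 24 h against 6 h. Of the single-gene differences under alternatives, 625 kept their direction and their side of the threshold, 21 passed newly, 2 were reversed and 60 uncalled ones changed sign.

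The deviations of samples with the same replicate number had correlations of -0.20 to 0.64, above 0.1 in 5 of 9 pairs, and 7 of 9 samples correlated best with their own number, a hint from the data and not from the design. Since not every pair was above 0.1, the numbers were not read as pairs. Slide could not be a block, since each time lay on 1 slide. DDX58 and USP18 probe 2 were near background before feeding, which limits their differences. The causes of these shifts were not tested.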
